A study of Mus musculus with 24 samples.

Results

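Genes of the motile cilium and of the multiciliated cells that build it were measured in whole left lung lobes of newborn mice. The group is a fixed list of 37 symbols that was chosen with earlier results of these data known. Of these symbols, 31 were present among the 23420 genes of each table. The 6 symbols that were not found are all axonemal dynein heavy chains. The tables carried 4 of these (*Dnah5*, *Dnah6*, *Dnah9* and *Dnah11*) under the older symbols *Dnahc5*, *Dnahc6*, *Dnahc9* and *Dnahc11*, and they are given beside the 31 without being counted among them. *Dnah3* and *Dnah12* were not analysed here.

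*Vangl2* encodes a core protein of the planar cell polarity pathway and *Ror2* a receptor for Wnt5a, and the study asked how loss of either gene affects the lung while alveoli form. Each of 4 comparisons set 3 mutant lungs against 3 control lungs of the same age, with control lungs of its own. The mutants were *Sox9Cre/+; Vangl2f/f* and *Sox9Cre/+; Ror2f/f* mice at postnatal day 2 (P2) and postnatal day 5 (P5), and the controls were labelled WT. The titles of the controls name *Vangl1/2* or *Ror2*, and the labels state no littermate relation, strain or sex for these lungs. Cre was driven from the *Sox9* locus, which is active in the distal lung epithelium and in several other tissues. The lobes were sequenced whole, so epithelium, mesenchyme, vessels and blood are mixed, and fewer cells of a type cannot be told apart from less RNA per cell. For the *Vangl2* mutants at P5 and the *Ror2* mutants at P2 the genotype field and the title disagree about which gene was floxed, and the title was followed. Nothing in the labels says that the lungs of a group came from separate litters, so p-values measure the spread between these lungs only.

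Motile cilia are hair-like projections that beat to move mucus along the airways. Their core, the axoneme, is a ring of microtubule doublets around a central pair. Dynein arms on the doublets pull neighbouring doublets past each other, radial spokes and the central pair set the rhythm, and tektins and other inner proteins stiffen the doublets. Multiciliated airway cells make many such cilia at once, after a programme of transcription in which *Foxj1* and the RFX factors switch on the axonemal genes. Primary cilia, which nearly every cell can carry, use the same intraflagellar transport but lack dynein arms and usually the central pair.

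All values are normalized counts, that is, read numbers per gene scaled by 1 factor per lung so that the 6 lungs of a table can be compared. Between 16178031 and 21546673 reads fell on genes in 23 of the 24 lungs. Control 1 of the P5 *Ror2* comparison had 13823693 reads and lacked them on part of the genome: 100% of the genes examined on chromosomes 6 to 9 and X and 72.02% of those of chromosome 5 stood at 0. In control 1, 100% of the 4 genes examined on chromosome Y and 31.58% of the 76 not mapped to a chromosome also stood at 0. These values were kept as deposited, so the counts over all genes in that comparison include them. Control 1 was set to missing for the genes of chromosomes 5 to 9 and X. In that comparison 25 of the 31 genes therefore have 6 lungs and 6 (*Ccdc113*, *Ccdc114*, *Ccdc151*, *Hydin*, *Tppp3* and *Zmynd10*) have 5. All 12 alveolar type I and all 12 alveolar type II cell markers passed the filter in every table, but so did most genes, so this says little about the tissue. *Vangl2* itself stood at 249, 302 and 281 in the P2 controls against 241, 224 and 173 in the P2 *Vangl2* mutants, and at 369, 314 and 292 against 170, 148 and 166 at P5 (limma adjusted p = 0.0604). *Ror2* was 451, 581 and 520 against 479, 349 and 366 in the P2 *Ror2* comparison, and 526, 368 and 597 against 362, 440 and 521 at P5. The *Ror2* values of mutants and controls overlapped at both ages (log2 fold change -0.38, limma adjusted p = 0.250 at P2; -0.16, limma adjusted p = 0.692 at P5), so these values do not check the labels of the *Ror2* mutants.

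The promoters of the group were read first, because genes of the axoneme are classically switched on through the X-box, the site bound by RFX factors. RefSeq promoters (GRCm38.p6) were available for 25 of the 31 genes and for 27025 genes in all, and the 250 bases before the start were searched on both strands. The X-box was spelled as GTNNCC and GNAAC with 3 bases of any kind between them, where N is any base, and 6 of the 25 genes (24.0%) held it against 2.07% of all genes. Its shorter core GTTGCC, which can overlap the full motif, was found in 9 of 25 (36.0%) against 11.8% of all genes. The forkhead motif GTAAACA was found in 1 of 25 (4.0%), *Ak7*, against 3.54% of all genes. Of the further axoneme genes with a promoter, 10 (9.9%) held the X-box, 35 (34.7%) its core and 8 (7.92%) the forkhead motif. Of the 52 ciliary transport genes shared with primary cilia it was 7 (13.5%), 12 (23.1%) and 0 (0.0%). None of the 4 heavy chains held any of the 3 motifs in this window. A match is a string of letters and not a measured binding site. In the 6 stretches with the X-box the motif ends between 2 and 206 bases before the RefSeq start used. The whole *Tekt4* stretch lies inside the annotated gene (chr17:25454549-25476602), as do those of *Ccdc114* and *Ccdc151* inside theirs. The motif, in capitals, reads as spelled on the strand of the gene or, in *Ccno* and *Hydin*, on the other strand. The 6 stretches are shown in the direction of the gene. They lie on GRCm38.p6 at chr7:45924192-45924214 (+) for *Ccdc114*, chr9:22002647-22002676 (-) for *Ccdc151*, chr13:112987575-112987604 (+) for *Ccno*, chr8:110266948-110266976 (+) for *Hydin*, chr1:69826859-69826888 (+) for *Spag16* and chr17:25471422-25471451 (+) for *Tekt4*.
Ccdc114: ggccccttGTCTCCCCAGTAACc
Ccdc151: cgcgggcgGTTTCCTTGGGAACgtgggcgg
Ccno: gggctgcgGTTGCCACGGTGACgacagacg
Hydin: actctgcgGTTGCTGTGGCAACagatggt
Spag16: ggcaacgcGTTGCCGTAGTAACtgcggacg
Tekt4: ccccacctGTGTCCTGGGAAACaaactcat
For the genes with the X-box the median log2 fold change was 1.09 in both P5 comparisons, against 0.93 (*Vangl2*) and 1.07 (*Ror2*) for the 19 genes whose promoter lacked it. At P2 it was 0.52 against 0.50 in *Vangl2* lungs and -0.22 against -0.01 in *Ror2* lungs. These are descriptions of small sets.

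At P5 the genes stood higher in the mutants of both lines by a similar amount, at P2 they stood modestly higher in *Vangl2* mutants, and at P2 in *Ror2* mutants their median was near 0. None of these differences passed the adjusted threshold in the main test. In P5 *Vangl2* mutants 31 of 31 genes had a mean above the controls, with a median log2 fold change of 1.04 (2.05-fold) and a range from 0.30 to 1.58. In P5 *Ror2* mutants it was again 31 of 31, with a median of 1.12 (2.18-fold) and a range from 0.19 to 1.53. In P2 *Vangl2* mutants all 31 lay above 0 with a median of 0.50 (1.42-fold), and in P2 *Ror2* mutants 13 of 31 did, with a median of -0.01. The median over all genes tested was close to 0 in each comparison. Of all genes 50.1% and 50.3% lay above 0 in P2 and P5 *Vangl2* mutants and 49.4% and 50.6% in P2 and P5 *Ror2* mutants. A fitted fold change of 2 or more was reached by 0 and 18 of the 31 genes in P2 and P5 *Vangl2* mutants and by 1 and 19 in P2 and P5 *Ror2* mutants, against 4.22%, 8.21%, 1.88% and 4.94% of all genes.

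No gene of the group passed the threshold of 0.05 in any of the 4 comparisons in limma on log2(normalized count + 1), with p adjusted by Benjamini-Hochberg over all genes tested. The lowest limma adjusted p in the group was 0.118 and 0.0823 in P2 and P5 *Vangl2* mutants and 0.203 and 0.0816 in P2 and P5 *Ror2* mutants. Of all genes, limma called 626 of 17448 (3.59%) in P2 *Vangl2* mutants, 98 of 17410 (0.563%) in P5 *Vangl2* mutants, 0 of 17541 (0.0%) in P2 *Ror2* mutants and 21 of 17179 (0.122%) in P5 *Ror2* mutants, so few genes of any kind passed. Genes called higher were 1.5%, 0.534%, 0.0% and 0.0582% of all genes in that order. Genes called lower numbered 364, 5, 0 and 11.
At an unadjusted p under 0.05 limma found 9, 25, 1 and 29 of the 31 genes higher in these comparisons, where 11.7%, 10.4%, 9.55% and 10% of all genes were. It found 0 of them lower, where 10.8%, 8.35%, 9.71% and 8.35% of all genes were. edgeR on the recovered reads called 0 of the 31 genes in each comparison, and 1.48%, 0.385%, 0.0% and 0.0699% of all genes higher. DESeq2 on the same reads called 3, 14, 1 and 27 of them, all higher, against 5.94%, 4.59%, 2.3% and 3.04% of all genes.

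In the P5 *Vangl2* comparison the replicate numbers were taken as pairs, although no label states a pairing. The pairing was read from these same data, where same-numbered lungs deviated alike (correlations 0.569, 0.528 and 0.267), and the calls below rest on it. Limma without a block called 0 of the 31 genes there. With the number as a block, 18 of the 31 genes rose, as did 5.47% of all genes tested. They were *Foxj1*, *Dnaic2*, *Dnali1*, *Ccdc114*, *Armc4*, *Ccdc40*, *Zmynd10*, *Rsph1*, *Rsph4a*, *Spag6*, *Spag16*, *Spag17*, *Hydin*, *Tekt1*, *Tppp3*, *Ak7*, *Ak8* and *Ccdc113*, with *Dnahc5*, *Dnahc6* and *Dnahc9* beside them. In P2 *Vangl2*, P2 *Ror2* and P5 *Ror2* lungs limma with the block called 0 of the 31, and 2.05%, 0.0057% and 0.00582% of all genes higher.

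**Figure D1:**
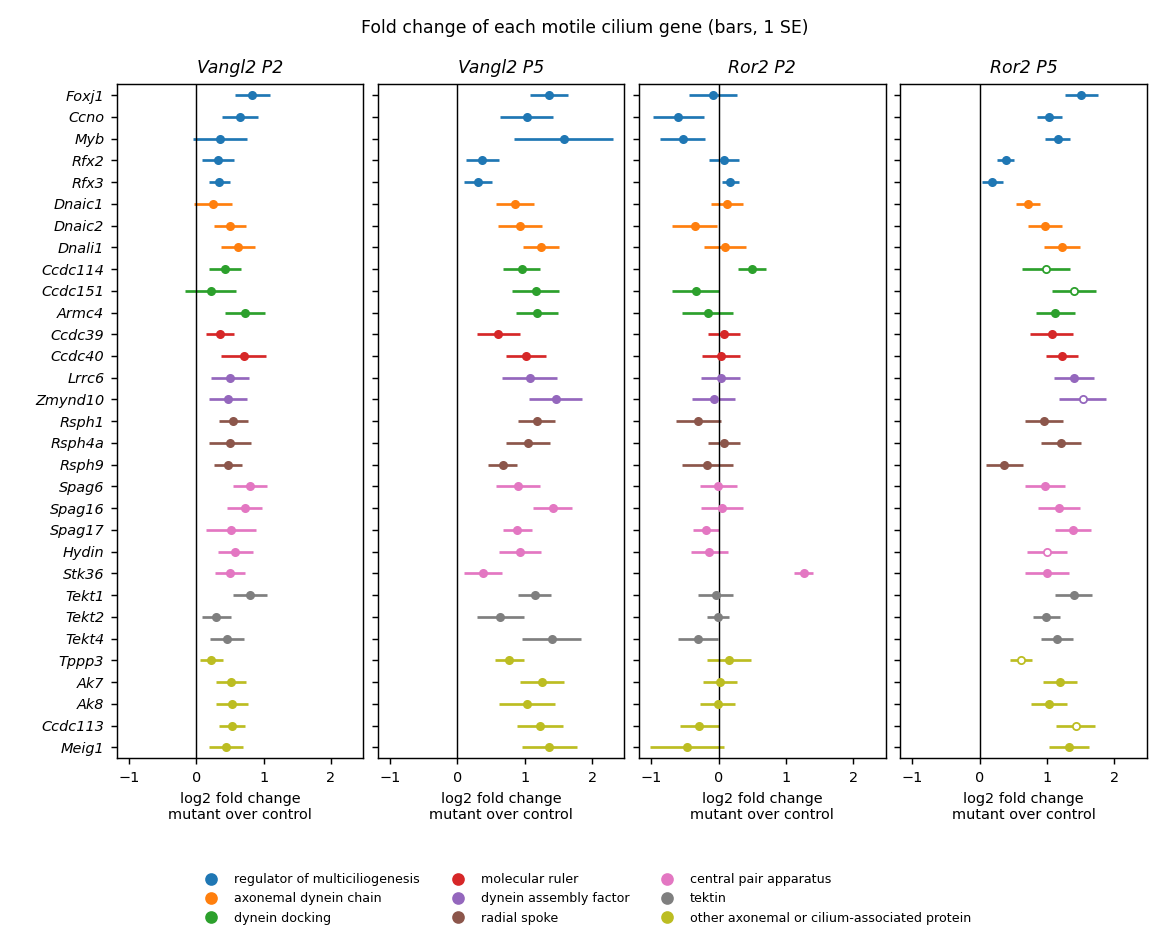
Log2 fold change of each of the 31 genes, mutant over control, on the x axis for the 4 comparisons, with bars of 1 SE from limma; colours give the role of the gene, and open points have 2 controls. All points lie right of 0 in P2 *Vangl2*, P5 *Vangl2* and P5 *Ror2* lungs, and they scatter around 0 in P2 *Ror2* lungs except *Stk36* at 1.26.

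Whether the values of mutants and controls overlapped was counted next. All 3 mutants lay above all 3 controls in 9 of 31 genes in P2 *Vangl2* lungs (14.6% of all genes), in 23 of 31 in P5 *Vangl2* lungs (13.2%) and in 1 of 31 in P2 *Ror2* lungs (13.4%). In P5 *Ror2* lungs this held for 22 of the 25 genes with 6 lungs (13.7% of such genes) and for 6 of the 6 genes with 2 controls (19.3%). Taken by replicate number in P5 *Vangl2* lungs, a count added after seeing the data, the mutant was above its own-numbered control in all 3 pairs for 30 of 31 genes (26.1% of all genes). In no comparison did the mutants of any of the 31 genes all lie below the controls. Of all genes tested, 2604 of 17448 and 2175 of 17410 did so in P2 and P5 *Vangl2* lungs. In P2 and P5 *Ror2* lungs it was 2145 of 17541 and 2457 of 17179, the latter with genes of 2 and of 3 controls together. With 3 lungs against 3 an exact permutation test cannot give a p below 0.1, nor below 0.2 with 2 controls.

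The regulators of the multiciliated programme come first. *Foxj1* (chr11:116330704-116335499), the forkhead factor that switches on axonemal genes, stood at 719, 461 and 1123 in P5 *Vangl2* controls and at 1765, 1875 and 1919 in the mutants. The P5 *Ror2* controls were at 332, 355 and 412 and the mutants at 1061, 1499.7 and 708. Every mutant lay above every control in both, by 2.57-fold (log2 1.36, SE 0.28, limma adjusted p = 0.0823, 0.0192 with the block) and 2.85-fold (log2 1.51, SE 0.24, limma adjusted p = 0.0816). At P2 *Foxj1* was 1251, 1543 and 1182 against 3671, 1937 and 1795 in the *Vangl2* comparison, again without overlap (log2 0.83, SE 0.26, limma adjusted p = 0.121). At P2 in the *Ror2* comparison it was 1036, 1551 and 3052 against 1849, 1467 and 1517, so the mutants lay inside the range of the controls (log2 -0.08, SE 0.35, limma adjusted p = 0.91).

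*Ccno* (chr13:112987802-112990778), a cyclin needed to amplify the centrioles from which the cilia grow, showed the same order at lower counts. Its values were 126, 47.0 and 119 in P5 *Vangl2* controls and 215, 189 and 149 in mutants (log2 1.03, SE 0.39, limma adjusted p = 0.213). Control 2 was the low one, and without it the log2 fold change was 0.57. For the P5 *Ror2* comparison they were 73.7, 64.3 and 78.4 against 143, 179 and 128 (log2 1.03, SE 0.19, limma adjusted p = 0.0885). At P2 *Ccno* was 135, 229.5 and 196 against 403, 249.8 and 233 in *Vangl2* lungs, without overlap, and 162, 275 and 488 against 216, 155 and 187 in *Ror2* lungs, where control 3 was far above the rest (log2 0.65 and -0.60).

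*Myb*, a factor that acts early in multiciliated progenitors and also in blood progenitors, depended on a single lung in the P5 *Vangl2* comparison. It is described because of these values. It stood at 245, 189 and 394 in P5 *Vangl2* controls and 371, 431 and 3065 in mutants, where mutant 3 was several times any other lung. The log2 fold change of 1.58 (SE 0.73) was the largest of the 31 in that comparison and was 0.60 without mutant 3. At P5 in the *Ror2* comparison *Myb* was 132, 126 and 151 against 316, 377 and 236, without overlap (log2 1.16, SE 0.19, limma adjusted p = 0.0816). *Rfx2* and *Rfx3*, the RFX factors of the list, had the smallest differences among the regulators: their log2 fold changes were 0.37 and 0.30 in P5 *Vangl2* lungs and 0.39 and 0.19 in P5 *Ror2* lungs. *Rfx3* serves primary cilia as well and is found in many cell types.

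**Figure D2:**
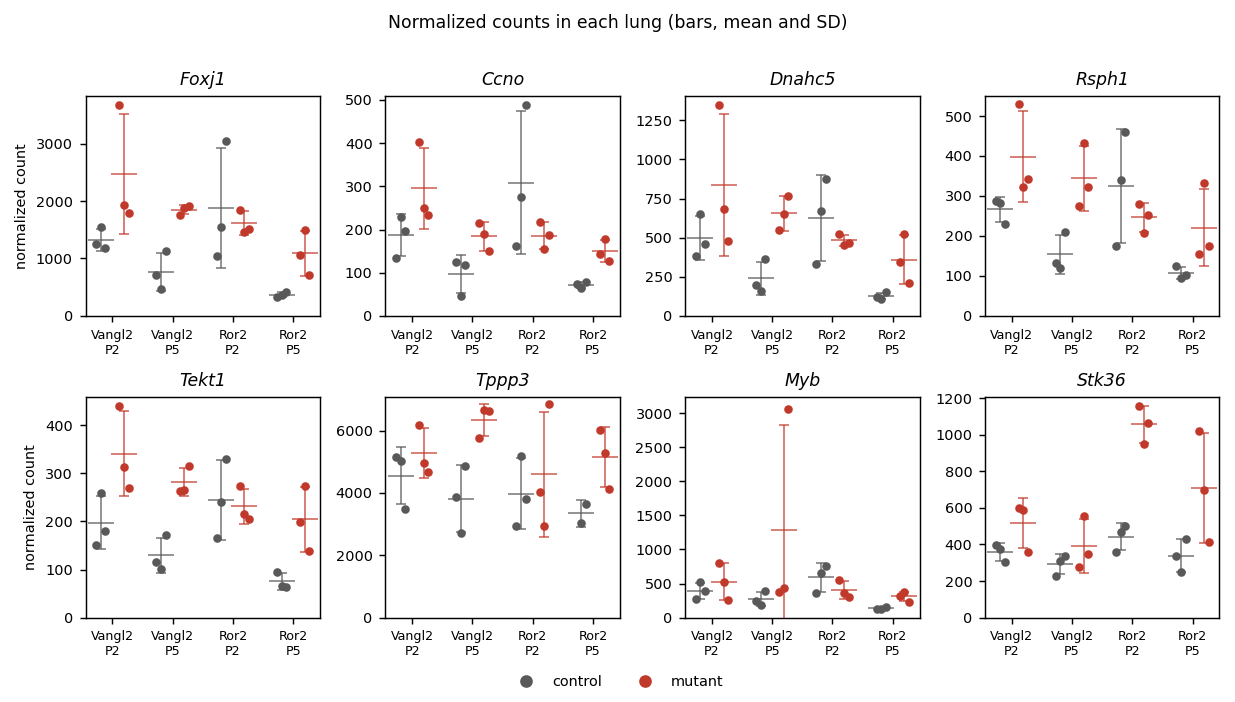
Normalized counts of 8 genes in each lung (points), with the mean and SD of each group (bars), for control (grey) and mutant (red) lungs of the 4 comparisons; levels are comparable within a comparison only, and the *Myb* bar is cut at 0. *Foxj1*, *Ccno*, *Dnahc5*, *Rsph1* and *Tekt1* separate mutants from controls at P5 in both lines, *Myb* of P5 *Vangl2* mutant 3 stands at 3065, and *Stk36* is high in all 3 P2 *Ror2* mutants.

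The dynein arms are the motors of the beat. *Dnahc5* (*Dnah5*, chr15:28154854-28472045), a heavy chain of the outer arm, stood at 199, 159.9 and 361 in P5 *Vangl2* controls and 546, 650.3 and 767 in mutants. The P5 *Ror2* values were 123, 109 and 151 against 346, 523 and 209. The groups did not overlap in either, and the mutant levels were 2.87-fold (log2 1.52, SE 0.30, limma adjusted p = 0.0713, 0.0122 with the block) and 2.64-fold those of the controls (log2 1.40, SE 0.31, limma adjusted p = 0.122). At P2 its log2 fold change was 0.65 (SE 0.36) in *Vangl2* and -0.26 (SE 0.33) in *Ror2* lungs, with overlapping values in both. *Dnahc9*, another outer arm heavy chain, had log2 fold changes of 1.09 and 1.26 at P5, *Dnahc6*, an inner arm heavy chain, 1.00 and 1.02, and *Dnahc11*, an outer arm heavy chain, 0.62 and 0.95 (*Vangl2* first). The intermediate chains *Dnaic1* and *Dnaic2* and the light intermediate chain *Dnali1* had 0.85, 0.93 and 1.24 in P5 *Vangl2* lungs and 0.72, 0.97 and 1.22 in P5 *Ror2* lungs. All 7 of these dynein chains had every mutant above every control at P5 in both lines.

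The proteins that fix and assemble the arms had similar values at P5. *Ccdc114*, *Ccdc151* and *Armc4*, which dock outer arms to the doublets, had median log2 fold changes of 1.16 in *Vangl2* and 1.12 in *Ror2* lungs, and their mutants lay above the controls in 3 of 3 genes in both. *Ccdc39* and *Ccdc40*, which together form the ruler that spaces the arms and spokes, had 0.61 and 1.02 in P5 *Vangl2* lungs and 1.07 and 1.23 in P5 *Ror2* lungs. *Lrrc6* and *Zmynd10*, cytoplasmic factors that preassemble dynein arms, had 1.08 and 1.46 in P5 *Vangl2* lungs and 1.40 and 1.53 in P5 *Ror2* lungs. *Zmynd10* stood at 99.4, 44.7 and 147 in P5 *Vangl2* controls and 244, 225 and 253 in mutants. In P5 *Ror2* lungs the 2 remaining controls of *Zmynd10* were at 56.2 and 67.5 and the mutants at 177, 275 and 119, the largest fold of the 31 genes there (2.88-fold).

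Radial spokes connect the doublets to the central pair. *Rsph1* (chr17:31255019-31277296), a spoke head protein, was 131, 119.9 and 211 in P5 *Vangl2* controls and 275, 433 and 323 in mutants (log2 1.17, SE 0.27, limma adjusted p = 0.0975, 0.0348 with the block). At P5 in the *Ror2* comparison it was 125, 94.4 and 103 against 155, 332 and 175, where mutant 2 was well above the other mutants (log2 0.96, SE 0.29, limma adjusted p = 0.174; 0.62 without mutant 2). At P2 its log2 fold change was 0.55 in *Vangl2* lungs, without overlap of the groups, and -0.30 in *Ror2* lungs, with overlap. *Rsph4a*, also of the spoke head, had 1.05 and 1.21 at P5, and *Rsph9* had 0.67 and 0.36, the latter with overlapping groups (67.2, 52.2 and 90.3 against 92.0, 111 and 66.8).

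The central pair apparatus held the gene that departed from the rest. *Spag6*, *Spag16*, *Spag17* and *Hydin*, proteins of the central pair and its projections, had log2 fold changes between 0.89 and 1.41 in P5 *Vangl2* lungs and between 0.97 and 1.39 in P5 *Ror2* lungs. *Spag6* has a near-identical copy, *Spag6l*, which was not analysed here, so its reads may come from either gene. *Stk36* (chr1:74601391-74636894), a kinase needed to build the central pair and also known as Fused in hedgehog signalling, was picked out after its values were seen. At P2 it stood at 359, 469 and 500.2 in *Ror2* controls and 1155, 952 and 1062 in *Ror2* mutants, without overlap, while the other 30 genes had log2 fold changes between -0.60 and 0.49 there. The mutant level was 2.40-fold that of the controls (log2 1.26, SE 0.14, limma adjusted p = 0.203), and it was the gene that DESeq2 called in P2 *Ror2* lungs. At P5 *Stk36* was 337, 251 and 431 in *Ror2* controls and 1018, 696 and 412 in mutants, so 2 mutants were high and mutant 3 lay within the controls (log2 1.00, SE 0.33, limma adjusted p = 0.188). In *Vangl2* lungs it was 398, 374 and 303 against 602, 590.1 and 361 at P2 and 229.9, 307 and 338 against 274, 556 and 347 at P5, with overlap at both ages. By number, each P5 mutant was above its control (limma adjusted p = 0.224 with the block), and the log2 fold change of 0.38 was 0.10 without mutant 2. The difference between the P2 contrasts of the 2 lines was -0.76 for *Stk36* (*Vangl2* minus *Ror2*, SE 0.28, unadjusted p = 0.0204, limma adjusted p = 0.946).

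Tektins line the inside of the doublets. *Tekt1* (chr11:72344717-72362442) was 115.9, 101.1 and 171.3 in P5 *Vangl2* controls and 264, 265 and 315 in mutants, and 95.1, 66.3 and 64.5 against 199.8, 275 and 138 in P5 *Ror2* lungs. Mutants and controls did not overlap in either (log2 1.15, SE 0.24, limma adjusted p = 0.0823, 0.0191 with the block; log2 1.40, SE 0.28, limma adjusted p = 0.107). At P2 *Tekt1* was 152, 259 and 181 against 439, 314 and 269.9 in *Vangl2* lungs (log2 0.79, no overlap) and 165, 239.9 and 331 against 274, 215 and 205 in *Ror2* lungs (log2 -0.04, overlap). *Tekt2* and *Tekt4* had 0.64 and 1.40 in P5 *Vangl2* lungs and 0.99 and 1.15 in P5 *Ror2* lungs.

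Of the remaining genes, *Tppp3* (chr8:105467492-105471422), a tubulin-binding protein of the axoneme that mesenchymal cells also make, had the most counts per kilobase. Its values were 3866, 2724 and 4866 in P5 *Vangl2* controls and 5758, 6653 and 6628 in mutants (log2 0.77, SE 0.21, limma adjusted p = 0.128, 0.0405 with the block). In P5 *Ror2* lungs the 2 remaining controls were at 3041 and 3643 and the mutants at 6015, 5297 and 4118 (log2 0.61, SE 0.17, limma adjusted p = 0.168). The groups did not overlap in either line, and the differences were below the medians of the 31 genes. At P2 *Tppp3* overlapped in both lines (log2 0.22 and 0.16). The adenylate kinases *Ak7* and *Ak8* had 1.26 and 1.04 in P5 *Vangl2* and 1.19 and 1.03 in P5 *Ror2* lungs. *Ccdc113*, a centriolar satellite protein, had 1.23 and 1.42, and *Meig1*, best known from sperm, 1.36 and 1.33. All 5 had every mutant above every control at P5 in both lines. Per kilobase of exon, *Tppp3* was highest in the P2 *Vangl2* controls at 2466 normalized counts, followed by *Foxj1* at 505 and *Rsph1* at 194, and among the 31 *Armc4* was lowest at 19.7.

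**Figure D3:**
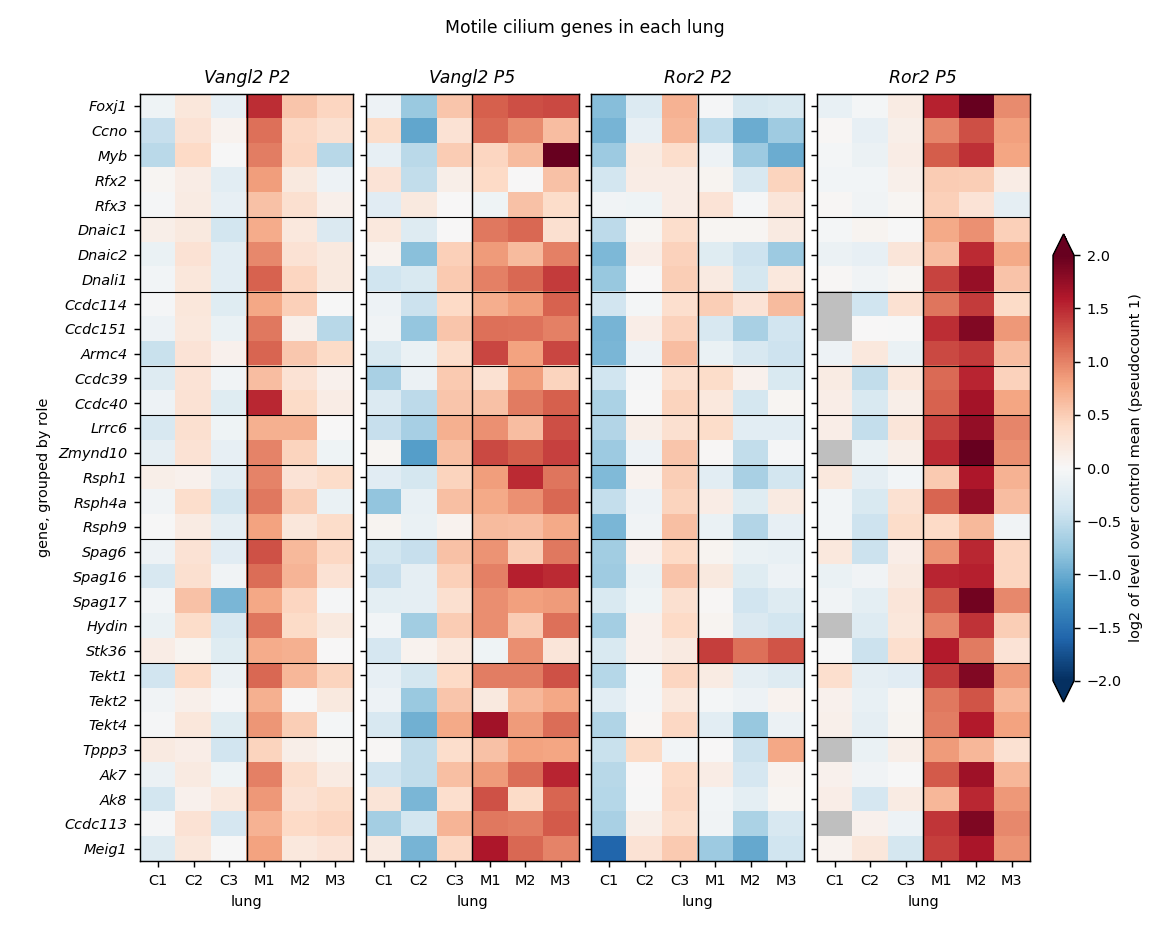
Log2 of the level over the control mean (pseudocount 1) for the 31 genes (rows, grouped by role) in each control (C1 to C3) and mutant (M1 to M3) lung of the 4 comparisons; grey marks the missing values of control 1. Columns share a colour down most rows: P5 *Ror2* mutant 2 (median level 2.90) and, at P2, *Vangl2* mutant 1 (1.95) are the reddest of their comparisons, and P2 *Ror2* control 1 (0.642) is blue in most rows.

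Within several groups most genes had the same highest or lowest lung. In P2 *Vangl2* lungs mutant 1 was the highest mutant for 30 of 31 genes and control 2 the highest control for 27. Without mutant 1 the median log2 fold change there was 0.29, and without mutant 3 it was 0.70. Without mutant 1, *Foxj1* was at 0.50, *Ccno* at 0.40 and *Dnahc5* at 0.23. In P5 *Vangl2* lungs control 3 was the highest control for 27 of 31 genes, while the mutants were split, each being the highest for 6, 7 and 18 genes in the order of their numbers. In P2 *Ror2* lungs control 1 was the lowest control for 30 genes and control 3 the highest for 29, so the controls spanned the mutants. The direction there depended on single lungs: the median log2 fold change ran from -0.29 to 0.21 when 1 lung was left out, and 20 of the 31 genes changed sign in at least 1 such fit. Relative to the mean of the controls, the median level over the 31 genes was 0.642, 1.00 and 1.33 in those 3 controls and 1.02, 0.795 and 0.906 in the mutants. In P5 *Ror2* lungs mutant 2 was the highest mutant for 22 of 25 genes and mutant 3 the lowest for 22, and the controls were the highest for 7, 3 and 15. The median level there was 1.02, 0.890 and 1.09 in the controls and 2.26, 2.90 and 1.59 in the mutants. In P5 *Vangl2* lungs it was 0.888, 0.713 and 1.40 in the controls and 1.90, 1.82 and 2.14 in the mutants, and at P2 0.931, 1.17 and 0.878 against 1.95, 1.32 and 1.12. Mutant 3 of the P5 *Ror2* comparison decided the count of calls: without it limma called 23 of the 31 genes higher, as it did 3.32% of all genes. Leaving out mutant 3 of the P2 *Vangl2* comparison gave 4 calls (*Foxj1*, *Spag6*, *Spag16* and *Stk36*), where 6.36% of all genes were called higher. Without mutant 3, limma called 0 of the 31 in P5 *Vangl2* and P2 *Ror2* lungs, as it did 0.0% of all genes in either.

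The 4 contrasts were then compared with each other, each with its own controls. In *Ror2* lungs the P5 contrast exceeded the P2 contrast in 30 of 31 genes by a median of 1.18 on the log2 scale, and 24 genes had an unadjusted p under 0.05 for it, where 5.09% of all genes did (0 were below 0, against 4.41% of all genes). None passed the adjusted threshold (lowest limma adjusted p = 0.454), and limma called 0 of all 16990 genes (0.0%). For *Foxj1* this difference was 1.59 (SE 0.48), for *Ccno* 1.63 (SE 0.45), for *Tekt1* 1.43 (SE 0.41) and for *Tppp3* 0.45 (SE 0.44). In *Vangl2* lungs the P5 contrast exceeded the P2 contrast in 29 of 31 genes by a median of 0.53, and 0 genes had an unadjusted p under 0.05 (4.38% of all genes above 0 and 4.07% below). At P2 the *Vangl2* contrast lay above the *Ror2* contrast in 29 of 31 genes by a median of 0.64, with *Ccno* (1.24, SE 0.51) and *Ccdc113* (0.81, SE 0.37) above 0 and *Stk36* below 0 at an unadjusted p under 0.05 (2.58% and 2.02% of all genes). At P5 the 2 lines differed by a median of -0.04, with 13 of 31 genes above 0 and 0 at an unadjusted p under 0.05 in either direction (2.6% and 2.13% of all genes). The difference at P5 was -0.15 (SE 0.42) for *Foxj1* and 0.12 (SE 0.48) for *Dnahc5*, and a p that misses the threshold does not show that the lines act alike.

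**Figure D4:**
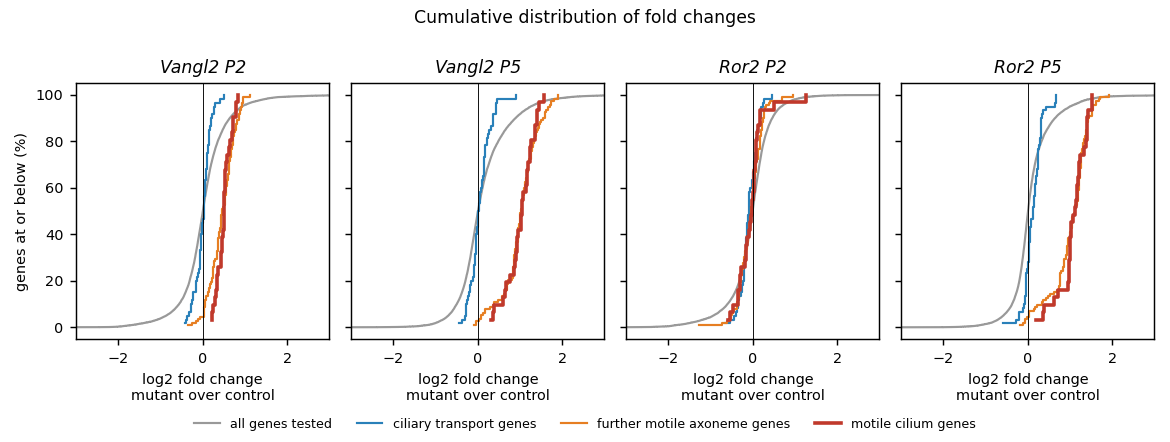
Cumulative share of genes (y axis, percent) at or below a log2 fold change, mutant over control (x axis), for the 31 motile cilium genes, the further motile axoneme genes, the ciliary transport genes and all genes tested. The red and orange curves lie right of the grey curve in P2 *Vangl2*, P5 *Vangl2* and P5 *Ror2* lungs, and all 4 curves cross near 0 in P2 *Ror2* lungs.

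A longer list of motile axoneme genes shares no gene with the 31 and was also chosen with earlier results of these data known. It had similar medians. Of its 112 genes tested, limma called 1 in P2 *Vangl2* lungs (*A330021E22Rik*, 273, 290 and 259 in controls and 609, 558 and 435 in mutants) and 0 in the other comparisons. Its median log2 fold change was 0.46 and 1.02 in P2 and P5 *Vangl2* lungs and -0.05 and 1.13 in P2 and P5 *Ror2* lungs. At an unadjusted p under 0.05, 38, 84, 2 and 84 of the 112 were higher in these comparisons and 1, 0, 0 and 0 lower. Of all genes, 11.7%, 10.4%, 9.55% and 10% were higher and 10.8%, 8.35%, 9.71% and 8.35% lower in limma. The same shares are the background for the transport and upstream lists that follow. The 60 genes of ciliary transport that motile and primary cilia share had medians near 0. These were 0.03 and 0.02 in *Vangl2* lungs and -0.09 and 0.12 in *Ror2* lungs at P2 and P5, and limma called 0 of 60 in each. At an unadjusted p under 0.05, 2, 2, 1 and 8 of the 60 were higher and 2, 1, 5 and 1 lower. All mutants lay above all controls in 8, 4, 3 and 22 of the 60 and below in 5, 6, 9 and 4. In P2 *Vangl2*, P5 *Vangl2* and P2 *Ror2* lungs 14.6%, 13.2% and 13.4% of all genes lay above. In P5 *Ror2* lungs it was 13.7% of genes with 6 lungs and 19.3% of those with 2 controls. There 40 of the 60 had 6 lungs, and the 22 and 4 pool both kinds. Of all genes, 2604 of 17448, 2175 of 17410, 2145 of 17541 and 2457 of 17179 lay below. A list of 16 upstream genes of multiciliogenesis, many of which serve the centrioles of dividing cells as well, had medians of 0.04, 0.12, -0.53 and 0.23. At an unadjusted p under 0.05, 1, 5, 0 and 8 of the 16 were higher and 5, 2, 4 and 2 lower. Limma called 3 of the 16 in P2 *Vangl2* lungs, all lower, where 364 of all 17448 genes were called lower. The 3 were *Stil* (log2 -1.30, SE 0.28, limma adjusted p = 0.0490) and *Plk4* (log2 -1.06, SE 0.18, limma adjusted p = 0.0326), both needed for centriole duplication, and *Tfdp1* (log2 -0.64, SE 0.10, limma adjusted p = 0.0312), a partner of E2F factors.

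**Figure D5:**
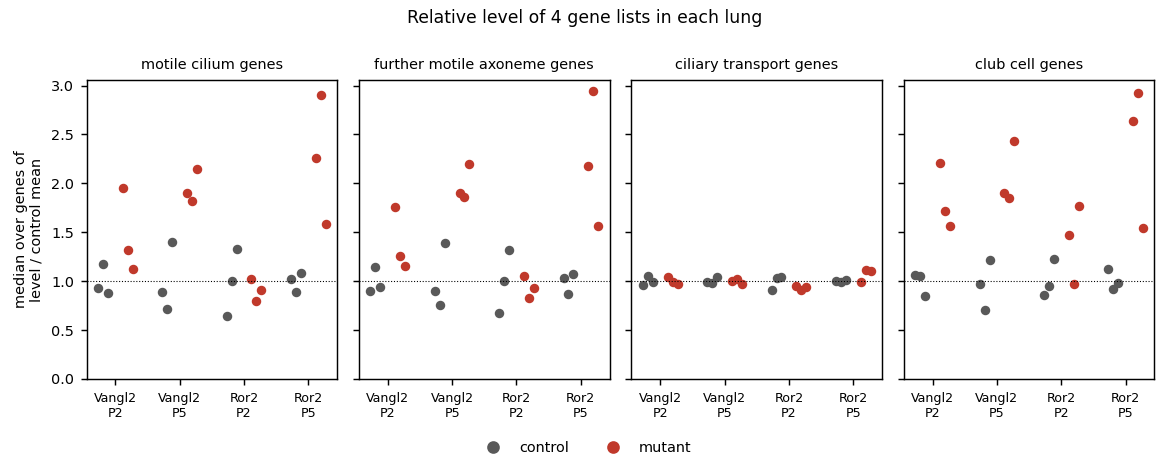
Median over the genes of a list of the level divided by the control mean (y axis, ratio) in each control (grey) and mutant (red) lung of the 4 comparisons, over genes with 6 lungs; the dotted line is 1. The motile cilium genes, the further axoneme genes and the club cell genes have their highest lung in P5 *Ror2* mutant 2, and the ciliary transport genes stay between 0.908 and 1.11 in all lungs.

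Markers of club, basal and goblet, and neuroendocrine cells had medians above 0 in P2 *Vangl2*, P5 *Vangl2* and P5 *Ror2* lungs, as the cilium genes did. In P2 *Ror2* lungs the club cell and neuroendocrine medians were also above 0, while the basal and goblet cell median was below it. The 16 club cell markers had medians of 0.83, 1.16, 0.57 and 1.22 (P2 and P5 *Vangl2*, P2 and P5 *Ror2*). Limma called 5, 1, 0 and 0 of these markers higher, against 1.5%, 0.534%, 0.0% and 0.0582% of all genes. Their summed level, over the genes with 6 lungs, ranged from 179943 to 207089 in P2 *Vangl2* controls and from 325156 to 402491 in the mutants, and from 81383 to 150446 against 248180 to 316913 at P5. In *Ror2* lungs it ranged from 168743 to 265647 against 213719 to 368601 at P2 and from 95408 to 114758 against 157734 to 279404 at P5. The club cell genes called were led by *Sftpa1* (log2 1.89) and *Hp* (log2 1.72) in P2 *Vangl2* lungs, and *Hp* (log2 1.32) was called at P5; both are also made by alveolar type II cells. The 15 basal and goblet cell markers (13 of them tested in P5 *Ror2* lungs), with 3, 2, 0 and 1 called higher, had medians of 1.35, 2.65, -1.28 and 0.93, among them the secreted protein gene *Bpifb1* (log2 3.47 in P2 *Vangl2* and 4.85 in P5 *Ror2* lungs). The 10 neuroendocrine cell markers had medians of 0.53, 1.37, 0.31 and 1.37, with 0 called. The 16 genes listed for the proximal airway had medians of 0.34, 0.34, 0.25 and 0.38, with 2, 1, 0 and 1 called higher. Among them was the keratin gene *Krt18* (log2 1.03 in P2 *Vangl2* and 0.67 in P5 *Ror2* lungs). This list does not mark airway cells alone, since it includes *Nkx2-1*, which the paper used to tell lung epithelial cells apart.
The alveolar type I markers had medians below those of the club cell markers (0.45, 0.23, 0.44 and 0.15; 1, 0, 0 and 0 called higher), as did the alveolar type II markers (0.38, 0.49, 0.27 and -0.06; 2, 1, 0 and 0 called higher). Of blood cells, the 10 neutrophil markers (9 of them tested in P5 *Ror2* lungs) had medians of 1.51, 1.90, -0.19 and 0.41, with 8, 4, 0 and 0 called higher. In P2 *Ror2* lungs their summed level was 29129 in control 3, against 5263 in control 1 and 7729 in control 2. The 10 markers listed for airway smooth muscle had medians of -0.26, -0.53, -0.14 and -0.20. The paper states that myofibroblasts and vascular smooth muscle cells have similar markers, so the list does not single out airway muscle. *Myh11*, a contractile myosin, was called lower in P2 *Vangl2* lungs (log2 -0.48). In P2 *Ror2* lungs limma found 1 of the 10 higher and 0 lower at an unadjusted p under 0.05, against 9.55% and 9.71% of all genes. Erythroid markers (6 or 7 tested) had medians of -1.40, -0.52, -1.49 and -0.37, with *Alas2*, the haem synthesis enzyme of red cells, called lower in P2 *Vangl2* lungs (log2 -1.51). Cardiac muscle markers had medians of -0.32, 0.23, -0.40 and 0.91 and cartilage markers (10 or 11 tested) of 0.42, 1.30, 0.002 and -0.04, with 0 of the cardiac and cartilage markers called. Between 0 and 2 markers of a list stood at 0 in all lungs of a comparison. The part of these cell types in the values of the cilium genes was not tested.

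Reads of 10 of the 31 genes may include those of a gene on the other strand, because their exons share bases with it in GENCODE M21 and no strand setting is given in the sources used here. They are *Ccdc39*, *Ccdc114*, *Dnaic1*, *Dnali1*, *Hydin*, *Myb*, *Spag6*, *Spag17*, *Tekt2* and *Zmynd10*, and the overlap runs from 15 bases (*Dnaic1*) to 1234 bases (*Ccdc39*, with *Ttc14*). The same holds for *Dnahc11* (642 bases, with *Cdca7l*), *Dnahc9* (477 bases) and *Dnahc6* (167 bases).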

How the data were processed

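RNA of whole left lung lobes was sequenced as 24 libraries, in 4 tables of 3 control and 3 mutant lungs each. The deposited signal values are reads per gene divided by 1 size factor per lung, made by the authors with DESeq2 (version not given) on mm10, per the submitters' processing notes. Aligner, counting tool, annotation and strand setting are not given in the sources used here. The tables were normalized separately, so only differences of contrasts were compared across them. The authors' own fold changes and p-values in the same files were not used.

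A gene entered the test when 3 or more lungs of its table reached a normalized count of 1. Each table was tested by limma 3.58.1 (R 4.3.3) with a trended prior on log2(normalized count + 1), and p-values were adjusted by Benjamini-Hochberg across every gene of the table that entered, with a threshold of 0.05. Fold changes are on that scale and understate changes of low genes. Whole reads were recovered from the steps of the values (100% of values within 0.02 of a whole number in every lung) for edgeR 4.0.16 and DESeq2 1.42.0, which served as alternatives. The main limma fit, limma with the block, edgeR, DESeq2 and the P5 *Vangl2* minus *Ror2* difference were tested on simulated data. The other alternatives and differences were not. The simulation gave every gene the same setting for the spread between lungs. Reads were not counted as molecules, so no counting interval is given.

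Replicate numbers were taken as pairs where the correlation of same-numbered lungs' deviations from their group means was over 0.1 in every pair. This held in the P5 *Vangl2* comparison (0.569, 0.528 and 0.267), from the data and not from a stated pairing.

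The motile cilium genes and the gene lists were chosen with earlier results of these data known. Genes given in full were those passing the threshold in any comparison plus *Foxj1*, *Ccno*, *Dnahc5*, *Rsph1*, *Tekt1* and *Tppp3*, with up to 4 called genes per list. *Stk36*, *Myb* and *Zmynd10* were added after their values were seen, as were the heavy chains under older symbols. Promoters came from RefSeq GRCm38.p6.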

Additional observations from a re-analysis of the deposited data

How the results depend on the processing

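Every one of the 31 genes kept its direction in P5 *Vangl2* and P5 *Ror2* lungs under every alternative run. Over the 31 genes and 4 heavy chains in the 4 comparisons, alternatives other than leaving out a lung gave 1352 values with the same direction and side of the threshold, 73 that newly passed it, all by DESeq2 or the replicate block, and 10 that reversed. Leaving out a lung gave 762, 32 and 46. By DESeq2, 3, 14, 1 and 27 of the 31 genes were called (P2 and P5 *Vangl2*, P2 and P5 *Ror2*) and 1913, 1199, 666 and 801 of all genes; by edgeR 641, 69, 0 and 25 of all genes. Without a trended prior limma called 1, 4, 2 and 11 of all genes. With an equal summed value per lung it called 193 (P5 *Vangl2*) and 35 (P5 *Ror2*). The replicate block gave 18 of the 31 and 1558 of all genes in P5 *Vangl2* lungs, where the pairing was read from the data. It gave 1 of all genes in P2 *Ror2* and in P5 *Ror2* lungs. There and in P2 *Vangl2* lungs the numbers were not taken as pairs, and the block changed no call of the 31 genes. With control 1 of the P5 *Ror2* comparison as deposited, 1 gene was called and the median of all genes shifted by 0.175 (log2). Leaving out 1 lung gave 0 to 4, 0 to 0, 0 to 1 and 0 to 23 of the 31 genes, and 1 to 2333, 0 to 54, 0 to 859 and 0 to 790 of all genes. In P2 *Vangl2* lungs without mutant 1, *Myb* (-0.0132, against 0.78 without mutant 3), *Dnaic1* (-0.0136, against 0.50) and *Ccdc151* (-0.21, against 0.59) reversed. In P2 *Ror2* lungs 20 of the 31 genes and 2 heavy chains reversed under at least 1 alternative. Their log2 fold changes with 1 lung left out ran as follows: *Foxj1* -0.44 to 0.34, *Rfx2* -0.12 to 0.26, *Dnaic1* -0.11 to 0.33, *Dnali1* -0.24 to 0.39, *Armc4* -0.55 to 0.22, *Ccdc39* -0.10 to 0.26, *Ccdc40* -0.25 to 0.29, *Lrrc6* -0.24 to 0.21, *Zmynd10* -0.39 to 0.25, *Rsph1* -0.69 to 0.00214, *Rsph4a* -0.14 to 0.32, *Rsph9* -0.56 to 0.20, *Spag6* -0.32 to 0.23, *Spag16* -0.26 to 0.38, *Hydin* -0.44 to 0.10, *Tekt1* -0.29 to 0.20, *Tekt2* -0.11 to 0.10, *Tppp3* -0.17 to 0.44, *Ak7* -0.24 to 0.24, *Ak8* -0.27 to 0.22, *Dnahc5* -0.67 to 0.0352, *Dnahc6* -0.17 to 0.24. With an equal summed value per lung, *Ccdc40* was at -0.00924, *Lrrc6* was at -0.0147, *Ak7* was at -0.028 there. By edgeR, *Ccdc40* was at -0.0182, *Lrrc6* was at -0.000839, *Spag16* was at -0.0431, *Ak7* was at -0.028 there. By DESeq2, *Ccdc40* was at -0.0136, *Spag16* was at -0.0393, *Ak7* was at -0.0233 there. The cause of these shifts was not tested. Adding the heavy chains under older symbols was chosen after seeing the data.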
